A study of Mus musculus with 2 samples.

Results

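The mouse mitochondrial genome encodes 13 proteins, and 10 of their genes were followed here in single cells of dorsal skin: mt-Nd1, mt-Nd2, mt-Nd3, mt-Nd4 and mt-Nd5 of respiratory complex I, mt-Cytb of complex III, mt-Co1, mt-Co2 and mt-Co3 of complex IV, and mt-Atp6 of the ATP synthase. They are 10 of the 31053 genes in the files, and the 3 remaining mitochondrially encoded protein genes, mt-Nd4l, mt-Nd6 and mt-Atp8, are given beside them. The 10 genes were chosen by their Chrna5-/- over WT values in these same files, mt-Nd3 for standing apart from the rest, so every value below describes these libraries and none is a test. Of the 2 libraries, 1 holds skin cells of wild-type (WT) mice, and the other those of Chrna5-/- mice, which lack the alpha 5 subunit gene of nicotinic acetylcholine receptors. Both genotypes were female, 6 to 8 weeks old and labelled as C57BL/6, and both had the cream base vaseline on the back, with the skin taken on day 7. The knockout line had been backcrossed to C57BL/6N, while the extraction protocol names C57BL/6J and speaks of skin treated with imiquimod, where the sample labels and the series name vaseline. Which part of Chrna5 was deleted and how many mice each library pooled are not stated.

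Mitochondrial DNA is transcribed from both strands into long precursors, which are cut into messenger, ribosomal and transfer RNAs, often at the transfer RNAs that lie between the coding genes. The messenger RNAs then receive short poly(A) tails and are translated inside the mitochondrion into core subunits of the respiratory chain, to which subunits encoded in the nucleus are added. In the epidermis, mitochondrial respiration is known to take part in keratinocyte differentiation and in hair follicle growth.

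All 10 genes lie on the plus strand of chrM, on GRCm38 (mm10) in GENCODE vM21, and each is a single exon with no intron. mt-Nd3 spans chrM:9459-9806 (ENSMUSG00000064360, 348 bases). On its 5′ side, mt-Tg (chrM:9391-9458), the glycine transfer RNA gene, separates it with no gap from mt-Co3 (chrM:8607-9390). On its 3′ side lie mt-Tr (chrM:9808-9875), the arginine transfer RNA gene, and then mt-Nd4l (chrM:9877-10173), which overlaps mt-Nd4 (chrM:10167-11544) by 7 bases. The ends of mt-Nd3, mt-Co3 and mt-Nd4l and both transfer RNA genes are shown because the Chrna5-/- over WT ratio changed most between these neighbours. Each line runs 5′ to 3′ on the plus strand from GENCODE vM21, with runs of 4 or more A in capitals.
mt-Co3, last 60 bases, chrM:9331-9390: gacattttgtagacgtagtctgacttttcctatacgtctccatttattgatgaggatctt
mt-Tg, whole gene, chrM:9391-9458: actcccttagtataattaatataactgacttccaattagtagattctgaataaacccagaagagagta
mt-Nd3, last 120 bases, chrM:9687-9806: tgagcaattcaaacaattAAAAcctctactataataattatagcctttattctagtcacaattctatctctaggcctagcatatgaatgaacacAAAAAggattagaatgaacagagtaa
mt-Tr, whole gene, chrM:9808-9875: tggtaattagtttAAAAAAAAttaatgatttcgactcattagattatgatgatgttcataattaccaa
mt-Nd4l, last 60 bases, chrM:10114-10173: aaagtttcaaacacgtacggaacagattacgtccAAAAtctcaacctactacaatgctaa
The longest run of A in mt-Nd3 has 5 bases, as in mt-Co3, mt-Atp6 and mt-Cytb, and mt-Nd2 holds the longest of the 10 genes, with 8. mt-Tr holds a run of 8 A that starts at its base 14. Of the 10 genes, mt-Nd3 is the shortest and has the lowest GC content, 33.0%, where the others range from 35.6% in mt-Nd4 to 39.9% in mt-Co1. Which end of a transcript the reads came from is not stated in the labels.

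The files held 10741 WT barcodes with 139673385 unique molecular identifiers (UMIs, which count captured RNA molecules) and 9696 Chrna5-/- barcodes with 125458721. Cells were kept from 500 UMIs and 300 genes upward if no more than 20% of their UMIs came from genes named mt-, and doublets were removed, which left 9673 WT cells (median 12552 UMIs) and 8869 Chrna5-/- cells (median 12316). The libraries had 34 barcodes in common. The targeted gene Chrna5 had 11 UMIs in the kept WT cells and 2 in the kept Chrna5-/- cells, too few to check the labels with. Levels are UMIs of a gene scaled to 1000000 UMIs of its class (CPM), ratios are Chrna5-/- over WT, and every interval is an exact 95% interval for counting error only, since each genotype has 1 library and no replicate.

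Cells were assigned by marker genes to 6 classes that each held at least 50 cells in both libraries. Keratinocyte-like cells numbered 7536 in the WT and 7149 in the Chrna5-/- library, dermal papilla-like cells 527 and 446, and fibroblast-like cells 245 and 248. The T and innate lymphoid-like class had 599 and 561. Melanocyte-like cells numbered 158 and 81 and Langerhans cell-like cells 79 and 50. Another 457 WT and 284 Chrna5-/- cells passed no gate, and 72 and 50 passed several. The defining markers of each class were found in both libraries, among them Corin in dermal papilla-like cells (804 and 809 CPM) and Dcn in fibroblast-like cells (10776 and 9085 CPM). None of the 10 genes that led the keratinocyte-like cells by fold over the other cells was one of their markers, and Csf1r, a macrophage marker, was among those of the Langerhans cell-like cells beside 5 of their own. Because the gates cut a per-cell score, 136 WT and 61 Chrna5-/- keratinocyte-like cells lay between the threshold and 1.25 times it. Of the fibroblast-like cells, 10 WT and 21 Chrna5-/- cells did. Cells just below a threshold were not counted.

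In keratinocyte-like cells, mt-Nd3 was the gene of the 10 that differed most between the libraries, and the direction differed among the complex I genes. mt-Nd3 encodes a small subunit next to the site where complex I passes electrons to ubiquinone. It had 31710 and 12531 UMIs, which are 276 CPM in the WT library and 117 CPM in the Chrna5-/- library, a ratio of 0.422 (0.414 to 0.431) or -1.24 on the log2 scale. mt-Nd1, which encodes a subunit at the same ubiquinone site, had 1459 and 1044 CPM, a ratio of 0.715 (0.710 to 0.721). mt-Nd2, one of the antiporter-like subunits that move protons through the membrane arm, had 1021 and 757 CPM (ratio 0.741, 0.735 to 0.748). These 3 genes were all lower in the Chrna5-/- library, but the ratio of mt-Nd3 lay well apart from the other 2. Of the other antiporter-like subunit genes, mt-Nd4 was higher, at 1321 and 1427 CPM (ratio 1.08, 1.07 to 1.09). mt-Nd5 was close to equal, at 241 and 237 CPM (ratio 0.986, 0.969 to 1.00), an interval that reaches 1. With a limit of 10% mt- UMIs per cell, the intervals of 9 of the 10 genes lay below 1, all but that of mt-Nd4. The share of all measured genes whose intervals leave out 1 was not computed, so this count has no background. Such intervals were common in these cells. In the main analysis, 3 of 37 nuclear complex I genes had intervals below 1 and 24 above it. Of 96 cytosolic ribosomal protein genes, 25 had intervals below 1 and 56 above it.

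Those of the 10 genes that belong to complexes III, IV and V were also lower in the Chrna5-/- keratinocyte-like cells, by smaller steps. mt-Cytb, the only mitochondrially encoded subunit of complex III, had 3089 CPM in the WT library and 2661 CPM in the Chrna5-/- library, a ratio of 0.861 (0.857 to 0.866). In complex IV, which passes electrons to oxygen, mt-Co1 for the catalytic subunit had 4552 and 4110.4 CPM (ratio 0.903, 0.899 to 0.907). mt-Co2, whose product takes electrons from cytochrome c, had 3748 and 3527 CPM (ratio 0.941, 0.937 to 0.945). mt-Co3 stood lower than both, at 4728 and 3751 CPM (ratio 0.793, 0.790 to 0.797), and it is the coding gene next to mt-Nd3 on the 5′ side. mt-Atp6, which encodes the proton channel subunit of the ATP synthase, had 6543 and 6274 CPM (ratio 0.959, 0.956 to 0.962). Of the 10 genes, 1 had a ratio past 1.5-fold, against 13.6% of the 14638 measured genes of these cells either way and 9.1% in the lower direction. That background holds many sparse genes: among the 7558 genes with at least 2000 UMIs, 3.18% were past 1.5-fold. The median log2 ratio of the 10 genes was -0.18, and that of all measured genes was -0.02.

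The 10 genes together had 26978 CPM in the WT library and 23904 CPM in the Chrna5-/- library, or 2.70% and 2.39% of all UMIs, a ratio of 0.886 (0.885 to 0.888). Within this class, outer root sheath and bulge markers together had 2155 and 998 CPM and upper hair follicle markers 1098 and 455 CPM, and the cells of those ranges had the highest summed levels of the 10 genes (31325 and 41248 CPM in WT). In basal-like and suprabasal-like cells taken alone, the log2 ratio of the sum was -0.13 and -0.11, against -0.17 in the whole class. It was -0.26 in outer root sheath and bulge-like and -0.22 in upper hair follicle-like cells. The part of the mix of ranges in the summed level was not tested. The 3 mitochondrially encoded genes outside the list did not move together. mt-Nd4l, a complex I subunit gene on the 3′ side of mt-Nd3, had 232 and 298 CPM (ratio 1.29, 1.27 to 1.31), and mt-Atp8, an ATP synthase subunit gene that shares 43 bases with mt-Atp6, had 52.3 and 64.0 CPM (ratio 1.22, 1.18 to 1.27). Both were higher in the Chrna5-/- library, on the opposite side from mt-Nd3. mt-Nd6, on the minus strand and overlapping mt-Nd5 by 14 bases, had 14.4 and 12.1 CPM (ratio 0.838, 0.779 to 0.902). How reads in the bases that 2 genes share were counted was not checked, so the values of overlapping genes may not be independent.

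**Figure D1:**
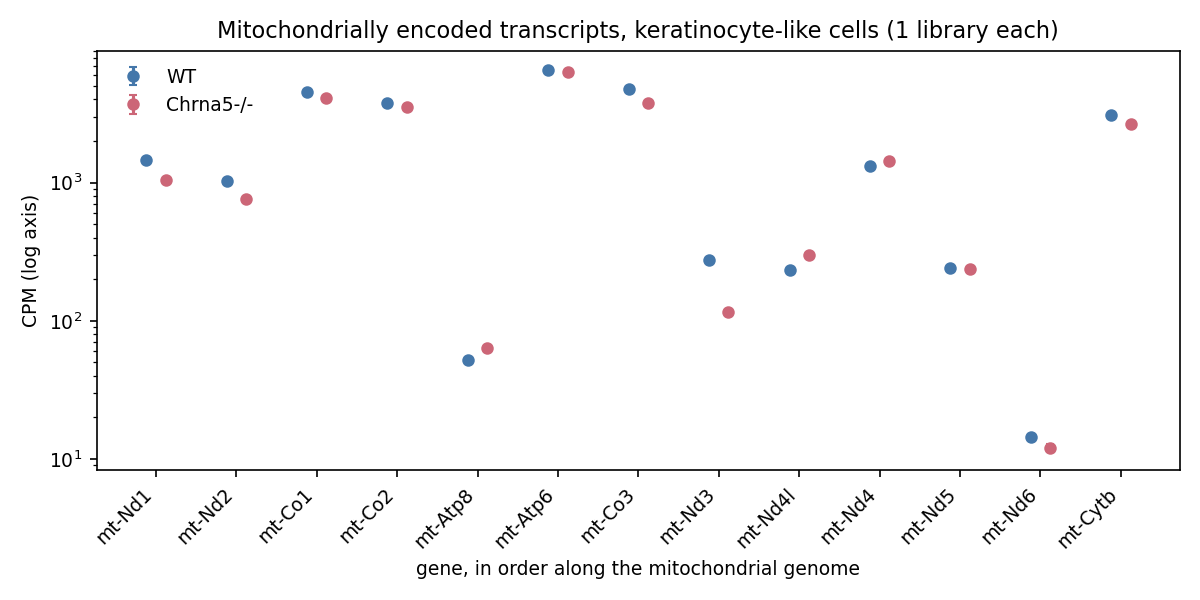
Level of the 13 mitochondrially encoded protein genes in keratinocyte-like cells, in CPM on a log axis, in their order along the genome, with 1 point per library (blue WT, red Chrna5-/-) and exact Poisson 95% intervals that are mostly smaller than the points. The widest gap between the libraries is at mt-Nd3, at 276 and 117 CPM.

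Levels of different genes are set side by side here as CPM per kilobase of gene. Whether UMIs of these genes scale with length is not known, since the labels do not state which end of a transcript was read, so the order depends on the scale. Per kilobase, mt-Atp6 was the highest of the 10 in keratinocyte-like cells (9608 and 9213 CPM per kilobase in the WT and Chrna5-/- libraries), and it was also the highest in CPM. mt-Nd3 (793 and 335 CPM per kilobase) lay above mt-Nd5 (132 and 130.1 CPM per kilobase) in both libraries, whereas in CPM it lay above mt-Nd5 in the WT library only.

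The low mt-Nd3 value was also seen within the mitochondrial transcripts, where it does not depend on the total over all genes. Of the UMIs of the 10 genes in keratinocyte-like cells, mt-Nd3 made up 1.02% (1.01 to 1.03) in WT and 0.487% (0.479 to 0.496) in Chrna5-/- cells. The ratio of mt-Nd3 to the other 9 genes was thus 0.474 (0.464 to 0.484) times as high in the Chrna5-/- library, or -1.08 on the log2 scale. With a limit of 10% mt- UMIs per cell it was 0.475 (0.465 to 0.485). Measured the same way against its own other 9 genes or, for mt-Nd4l, against all 10, mt-Nd4 (0.30 on the log2 scale) and mt-Nd4l (0.54) were above 0 and mt-Co3 (-0.19) was below 0.

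The difference in this share was of similar size in keratinocyte-like cells of low and high mitochondrial content. In keratinocyte-like cells with at most 2% mt- UMIs (1455 WT and 2260 Chrna5-/- cells), mt-Nd3 made up 0.992% and 0.476% of the UMIs of the 10 genes, a ratio to the other 9 of 0.477 (0.454 to 0.502). From 2 to 3% (3589 and 3343 cells) the shares were 1.01% and 0.482%, and from 3 to 5% (1900 and 873 cells) 1.05% and 0.514%. The ratio stayed near that of all keratinocyte-like cells in each of these bins. It was 0.474 (0.427 to 0.526) from 5 to 10% and 0.461 (0.417 to 0.510) from 10 to 20%. In the 212 WT and 146 Chrna5-/- keratinocyte-like cells above 20%, which the filter removes, it was 0.456 (0.395 to 0.525). In the cells of the other classes together, the ratio was lowest in the bin from 5 to 10%, at 0.356 (0.264 to 0.472), and highest in the bin from 2 to 3%, at 0.530 (0.435 to 0.641). Cells that passed no gate or several are not in these bins.

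**Figure D2:**
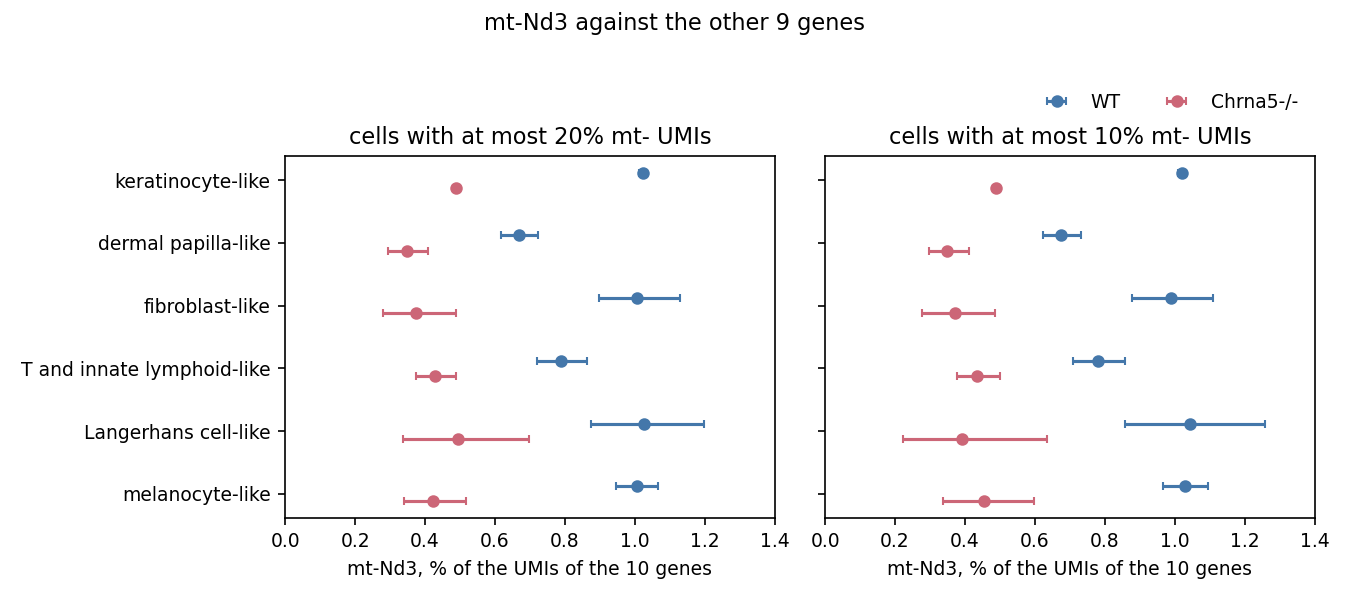
Share of mt-Nd3 among the UMIs of the 10 genes, in percent, in each cell class and library (blue WT, red Chrna5-/-), with exact Clopper-Pearson 95% intervals, for cells with at most 20% (left) and at most 10% (right) mt- UMIs. In each class the Chrna5-/- point lies to the left of the WT point, at 0.487% against 1.02% in keratinocyte-like cells at the 20% limit.

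Cell by cell, the distribution of mt-Nd3 lay lower in the Chrna5-/- keratinocyte-like cells at its 10th, 50th and 90th percentiles. The median cell had 4 mt-Nd3 UMIs in WT and 1 in Chrna5-/- skin, the 10th percentile was 1 and 0, and the 90th was 9 and 4. Per 10000 UMIs of the cell, the median was 2.47 and 0.934. mt-Nd3 was not found in 8.45% (7.83 to 9.10) of WT and 26.7% (25.6 to 27.7) of Chrna5-/- keratinocyte-like cells, whose median depths were 14362 and 14042 UMIs. After each cell was thinned to 1000 UMIs, 26.0% (25.02 to 27.02) of 7443 WT cells and 12.8% (12.1 to 13.6) of 7041 Chrna5-/- cells had an mt-Nd3 UMI, which puts both libraries at 1 depth. Every cell type has mitochondrial transcripts, so no class could show the background of free RNA for this gene.

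**Figure D3:**
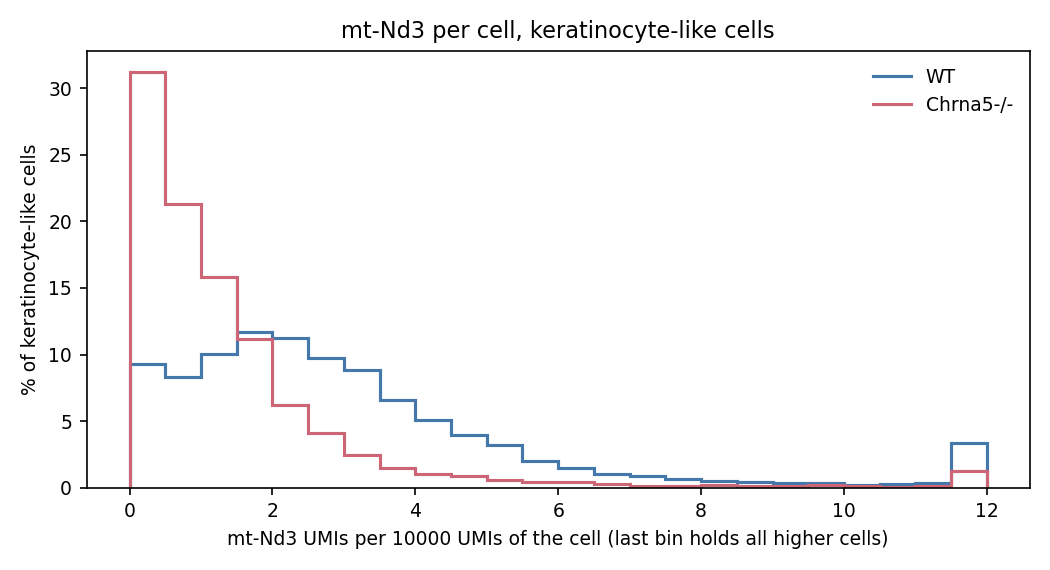
Distribution of mt-Nd3 over single keratinocyte-like cells, as the percent of cells in each bin of mt-Nd3 UMIs per 10000 UMIs of the cell, for the WT (blue) and the Chrna5-/- library (red); the last bin holds every higher cell. The Chrna5-/- cells pile up in the lowest bins, and the medians are 2.47 and 0.934.

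The 4 ranges within the keratinocyte-like cells gave mt-Nd3 ratios close to each other, at both limits on mt- UMIs. Basal-like cells (4464 WT and 4682 Chrna5-/-), which hold the dividing layer, had 17728 and 7889 UMIs of mt-Nd3, a CPM ratio of 0.433 (0.422 to 0.445). Suprabasal-like cells (1380 and 1629), the differentiating layers, had 6809 and 3266 UMIs (ratio 0.436, 0.418 to 0.455). Outer root sheath and bulge-like cells (1040 and 489) had 4085 and 836 UMIs (ratio 0.420, 0.389 to 0.453), and upper hair follicle-like cells (117 and 64) had 443 and 112 UMIs (ratio 0.472, 0.380 to 0.582). In each range mt-Nd3 was the lowest of the 10 genes by ratio and mt-Nd4 the highest, and 1 of the 10 was past 1.5-fold. The shares of all measured genes past that fold were 12.3%, 11.4%, 11% and 23.5% in these ranges. The summed level of the 10 genes was nearer to equal in basal-like (-0.13 on the log2 scale) and suprabasal-like cells (-0.11) than in outer root sheath and bulge-like (-0.26) and upper hair follicle-like cells (-0.22), values whose differences were not tested. After each cell was thinned to 1000 UMIs, the summed value of suprabasal-like cells was 0.00.

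Dermal papilla-like cells, the mesenchymal cells at the base of the hair follicle, had lower levels of most of the 10 genes in the Chrna5-/- library. The 10 genes together had 27272 CPM in the WT library and 17982 CPM in the Chrna5-/- library, or 2.73% and 1.80% of all UMIs, a ratio of 0.659 (0.652 to 0.667). mt-Nd3 had 635 and 150 UMIs, which are 182 and 62.6 CPM (ratio 0.344, 0.286 to 0.411), and mt-Co3 had 5426 and 2501 CPM (ratio 0.461, 0.448 to 0.475). Those 2 neighbouring genes were the lowest by ratio, and mt-Co2 (0.655) was the third of 3 genes past 1.5-fold, against 13.1% of the 11216 measured genes. With the limit of 10% mt- UMIs, 2 were past it, since mt-Co2 moved to 0.668, and over all alternatives the count ranged from 2 to 5. mt-Atp6 (0.670), mt-Cytb (0.674) and mt-Co1 (0.697) were lower too, while mt-Nd4 (ratio 1.06, 1.02 to 1.11) and mt-Nd5 (ratio 1.04, 0.925 to 1.17) were not. Among 15 genes of the dissociation stress response, 6 were lower past 1.5-fold in these cells and 0 higher. The nuclear RNA Neat1 had 353 and 148 CPM and Malat1 47602 and 56906 CPM, and the part of these values in the mitochondrial ones was not tested.

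The fibroblast-like cells, which make the collagen of the dermis, had the lowest ratios of all classes. The 10 genes together had 21770.1 CPM in the WT library and 11114 CPM in the Chrna5-/- library, or 2.18% and 1.11% of all UMIs, a ratio of 0.511 (0.5004 to 0.521), and the median cell had 2.28% and 0.935% mt- UMIs. mt-Nd3 had 299 and 53 UMIs, which are 219 and 41.4 CPM (ratio 0.189, 0.138 to 0.254), and it was not found in 48.2% of WT and 80.2% of Chrna5-/- cells, whose median depths were 5547 and 5164 UMIs. After thinning to 1000 UMIs it was found in 20.7% and 6.69% of cells. mt-Co3 had 4388 and 1647 CPM (ratio 0.375, 0.357 to 0.394), mt-Cytb 2340.3 and 1153 CPM (ratio 0.492, 0.463 to 0.524) and mt-Co2 2727 and 1393 CPM (ratio 0.511, 0.483 to 0.541). All but mt-Nd4 (ratio 0.690, 0.637 to 0.747), that is 9 of the 10, were lower past 1.5-fold, against 22.2% of the 9132 measured genes either way and 10.7% in the lower direction, and 10.95% lower among the 210 genes with at least 2000 UMIs. At the 10% limit the ratio was 0.513 (0.503 to 0.523) for the sum and 0.192 (0.140 to 0.260) for mt-Nd3, with the same count of 9. The count was 5 of 10 after thinning to 1000 UMIs, 7 as a mean over cells and 10 with a stricter gate, and the log2 ratio of the sum ranged from -1.25 with the stricter gate to -0.74 after thinning.

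Other values moved with the fibroblast-like class as well. Its collagen marker Col1a1 had 6294 and 2965 CPM, its marker Dcn 10776 and 9085 CPM, and its 8 markers together 35013 and 25466 CPM. Neat1, a nuclear RNA, had 985 and 291 CPM, whereas Malat1, another nuclear RNA, had 21733 and 25720 CPM. Of the marker lists of other cells, pericyte markers together had 528 and 254 CPM, T and innate lymphoid markers 431 and 219.7 CPM, and upper hair follicle markers 164 and 92.3 CPM, all lower in the Chrna5-/- library like the mitochondrial genes. Keratinocyte markers had 1271 and 1379 CPM. The part of these cells' RNA in the mitochondrial values was not tested. Whether the 2 libraries sampled the same fibroblast states was not tested.

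T and innate lymphoid-like cells, lymphocytes of the skin, had 34505 CPM in the WT library and 28699 CPM in the Chrna5-/- library for the 10 genes together, a ratio of 0.832 (0.822 to 0.842). mt-Nd3 had 473 and 218 UMIs, which are 273 and 123 CPM (ratio 0.451, 0.382 to 0.530), and it was the only one of the 10 past 1.5-fold, against 17.6% of the 8920 measured genes. mt-Co3 followed at 0.679 (0.660 to 0.699). With a stricter gate, 2 of the 10 genes were past 1.5-fold. mt-Nd4 was higher in the Chrna5-/- library, at 1382 and 1624 CPM (ratio 1.18, 1.11 to 1.24), and so was mt-Nd4l (ratio 1.21, 1.08 to 1.36). After thinning to 1000 UMIs, mt-Nd3 was found in 25.4% (21.9 to 29.3) of WT and 11.7% (8.996 to 14.8) of Chrna5-/- cells.

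Langerhans cell-like cells, the antigen-presenting cells of the epidermis, were few and shallow, with median depths of 2603 and 1198 UMIs. They had 40835 and 37083 CPM for the 10 genes together (ratio 0.908, 0.882 to 0.935), and mt-Nd3 had 160 and 32 UMIs, a CPM ratio of 0.437 (0.289 to 0.641). mt-Nd3 was again the lowest and the only one of the 10 past 1.5-fold, where 34% of the 3538 measured genes were. Over all alternatives the count ranged from 1 to 3, the latter as a mean over cells. The 10% limit left 56 WT and 35 Chrna5-/- cells with 109 and 16 UMIs of mt-Nd3, a ratio of 0.324 (0.179 to 0.549). The log2 ratio of mt-Nd3 in this class was -1.63 at the 10% limit and, at the 20% limit, -0.56 with each cell thinned to 1000 UMIs, which left 65 and 32 cells and put mt-Nd3 within 1.5-fold; the shares of those cells with an mt-Nd3 UMI were 38.5% (26.7 to 51.4) and 21.9% (9.28 to 40.0). Keratinocyte marker UMIs per 10000 had a median of 19.7 in the WT and 52.3 in the Chrna5-/- cells, and their part in these values was not tested.

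Melanocyte-like cells, the pigment cells of the hair follicle, were the one class whose summed level was higher in the Chrna5-/- library, and this direction turned with the limit on mt- UMIs. At the 20% limit the 10 genes together had 46098 CPM in the WT library and 53417 CPM in the Chrna5-/- library, a ratio of 1.16 (1.14 to 1.18). At the 10% limit they had 42335 and 33231 CPM (ratio 0.785, 0.770 to 0.801), with 132 WT and 52 Chrna5-/- cells left. Between the 2 limits lay 26 of 158 WT cells (16.5%) and 29 of 81 Chrna5-/- cells (35.8%), and above 20% lay 36.1% and 46.1% of the barcodes of this class. The median depths were 5649.5 and 2762 UMIs. mt-Nd3 was lower at both limits: it had 1111 and 92 UMIs (ratio 0.486, 0.389 to 0.602) at the 20% limit and 1004 and 50 UMIs (ratio 0.346, 0.255 to 0.460) at the 10% limit. It was the only one of the 10 past 1.5-fold at the 20% limit, against 31.5% of the 8902 measured genes, and at the 10% limit mt-Co3 (ratio 0.603, 0.571 to 0.636) was past it too. The call of mt-Nd3 ended with no limit on mt- UMIs, where its log2 ratio was -0.55 and 7 of the 10 genes were higher past 1.5-fold. After each cell was thinned to 1000 UMIs it was -0.70, and the shares of cells with an mt-Nd3 UMI, 37.7% (29.3 to 46.6) in WT and 30.6% (19.6 to 43.7) in Chrna5-/- cells, had intervals that overlap. After that thinning, 4 of the 10 genes were higher past 1.5-fold. mt-Atp6 had 10390.3 and 14342 CPM (ratio 1.38, 1.34 to 1.42) and mt-Nd4 2986 and 4244 CPM (ratio 1.42, 1.35 to 1.498) at the 20% limit, and 0.881 (0.846 to 0.917) and 0.954 (0.889 to 1.02) were their ratios at the 10% limit. The nuclear RNA Malat1 had 10716 CPM in the WT and 26524 CPM in the Chrna5-/- melanocyte-like cells, and the median of keratinocyte marker UMIs per 10000 was 9.73 and 26.4. The part of depth, of these RNAs and of the cells near the limits in the summed values was not tested.

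**Figure D4:**
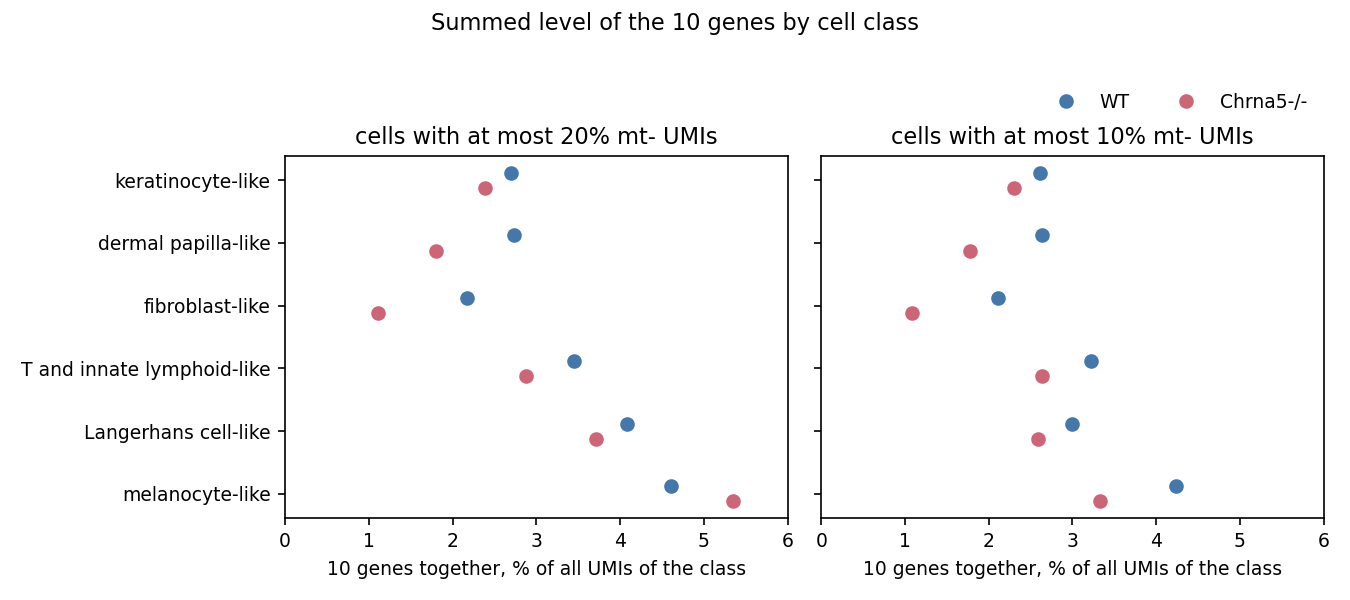
Summed level of the 10 genes as a percent of all UMIs of a class, in each library (blue WT, red Chrna5-/-), for cells with at most 20% (left) and at most 10% (right) mt- UMIs. Melanocyte-like cells have the highest level at both limits, and their order of libraries turns from 4.61% below 5.34% to 4.23% above 3.32%.

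Across the 6 classes at the 20% limit, mt-Nd3 was the lowest of the 10 genes by ratio in each class, and mt-Nd4 the highest. The log2 ratio of mt-Nd3 ranged from -2.40 in fibroblast-like to -1.04 in melanocyte-like cells. mt-Co3 ranged from -1.41 to -0.23 and mt-Nd1 from -0.70 to -0.14, both below 0 in 6 of 6 classes with intervals that left out 0. mt-Nd4 was above 0 in 5 of 6 classes, from -0.54 in fibroblast-like to 0.51 in melanocyte-like cells. mt-Nd5 was split, 3 classes against 3, and mt-Co1, mt-Co2, mt-Cytb and mt-Nd2 were below 0 in 5 of 6, with melanocyte-like cells the exception for each. mt-Atp6 was below 0 in 4 of 6. At the 10% limit mt-Nd3 stayed lowest and mt-Nd4 highest in each class, and the summed level was below 0 in 6 of 6 classes, from -0.96 to -0.19.

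**Figure D5:**
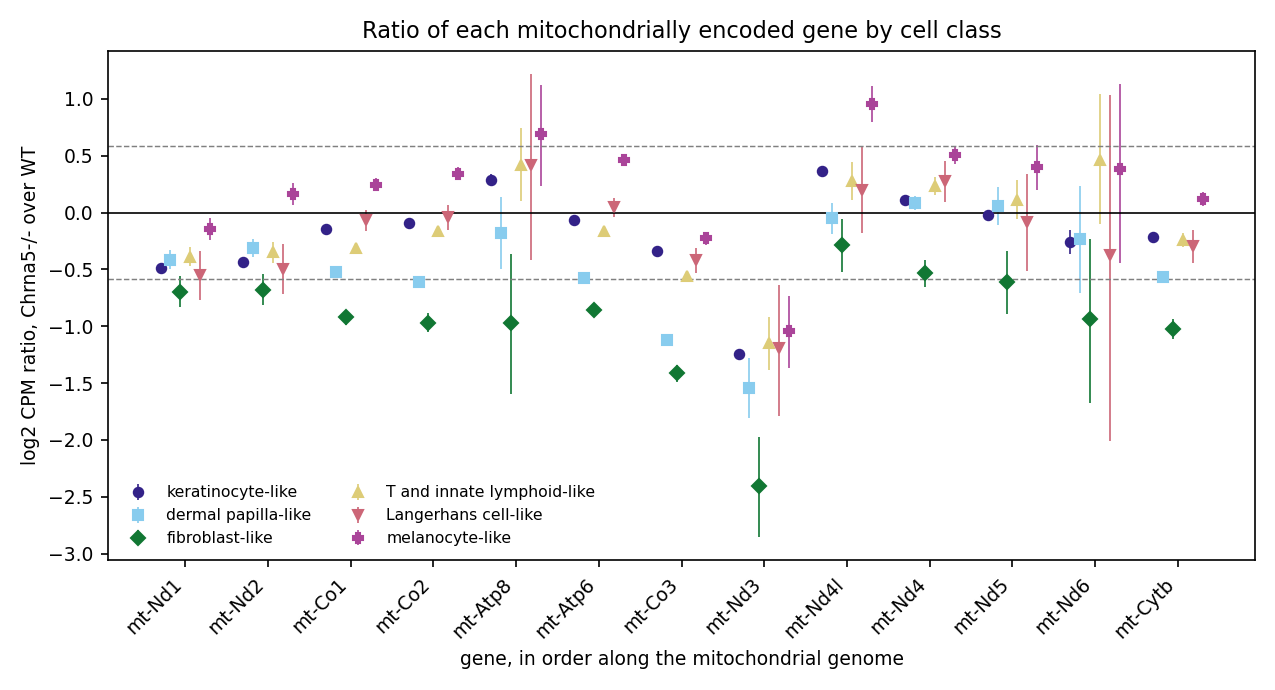
log2 ratio of CPM, Chrna5-/- over WT, for the 13 mitochondrially encoded protein genes in their order along the genome, with 1 symbol per cell class and exact 95% counting intervals; dashed lines mark 1.5-fold. At mt-Nd3 all 6 symbols lie below -1, and in each class the symbols of its neighbours mt-Co3 and mt-Nd4l lie higher than that of mt-Nd3.

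Set against the other 9 genes, mt-Nd3 spanned a narrower range across classes than its own CPM ratio, though the difference in range was not tested. The log2 ratio of mt-Nd3 to the other 9 was -1.08 in keratinocyte-like, -0.94 in dermal papilla-like, -1.44 in fibroblast-like, -0.89 in T and innate lymphoid-like, -1.06 in Langerhans cell-like and -1.26 in melanocyte-like cells. At the 10% limit the same values were -1.07, -0.95, -1.43, -0.85, -1.43 and -1.19. With each cell thinned to 1000 UMIs, the value in Langerhans cell-like cells was -0.46 and in melanocyte-like cells -1.17. Within the mitochondrial transcripts, mt-Co3 also lay below its other 9 genes in 6 of 6 classes (-0.62 to -0.19), and mt-Nd4 above them in 6 of 6 (0.30 to 0.74). A share within a fixed set of transcripts must be lower for some genes where it is higher for others, so these values show unequal ratios and not which gene differed. By level, mt-Nd3 was highest in melanocyte-like and Langerhans cell-like cells of the WT library (463 and 419 CPM), whose counting intervals overlap, and lowest in dermal papilla-like cells (182 CPM). In the Chrna5-/- library the order was the same at the top (225 and 183 CPM), and the lowest class was the fibroblast-like one (41.4 CPM).

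In keratinocyte-like cells, the subunits that the nucleus adds to the same complexes had ratios within 1.5-fold, but for 1 sparse gene. Of 37 nuclear complex I genes, 0 were past 1.5-fold, with a median log2 ratio of 0.06. The shares past it were 13.6% of all measured genes and 3.18% of those with at least 2000 UMIs. Ndufb11 (288 and 345 CPM, ratio 1.2004, 1.18 to 1.22) and Ndufb5 (ratio 1.13, 1.11 to 1.15) lay highest, and Ndufa3 (111 and 95.3 CPM, ratio 0.857, 0.835 to 0.880) and Ndufs1 (ratio 0.955, 0.914 to 0.998) lowest. Complex II, which is wholly nuclear, had 0 of 4 past the fold, between Sdha (ratio 0.932, 0.896 to 0.970) and Sdhb (ratio 1.07, 1.04 to 1.10). Complex III had 0 of 9, between Uqcr10 (ratio 0.928, 0.915 to 0.940) and Uqcrb (309 and 377 CPM, ratio 1.22, 1.201 to 1.24). Complex IV had 1 of 11 lower, the sparse gene Cox7a1 with 36 and 22 UMIs (0.653, 0.366 to 1.14), named here after its value was seen, while Cox4i1 (ratio 0.957, 0.9496 to 0.965) and Cox8a (ratio 1.13, 1.12 to 1.14) marked the ends of the abundant subunits. The ATP synthase had 0 of 14 measured, between Atp5k (363 and 300.1 CPM, ratio 0.827, 0.815 to 0.839) and Atp5g2 (ratio 1.17, 1.16 to 1.19).

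Genes that copy, cut and stabilise mitochondrial RNA were within 1.5-fold as well. Beside each list here stand the same shares past it, 13.6% of all measured genes and 3.18% of those with at least 2000 UMIs. Of 14 genes of mitochondrial DNA transcription and replication, 0 were past it (median log2 ratio 0.05), with Tfb1m, which encodes a methyltransferase of mitochondrial ribosomal RNA, highest at 3.36 and 4.54 CPM (ratio 1.35, 1.18 to 1.55). Mterf1a was the lowest of this list (ratio 0.794, 0.668 to 0.942). Of 19 genes of mitochondrial RNA processing and stability 0 were past it (median -0.09). The lowest was Ptcd2, a pentatricopeptide repeat gene, at 44.9 and 31.7 CPM (ratio 0.706, 0.676 to 0.738), followed by Elac2, which cuts the 3′ ends of transfer RNAs, at 17.2 and 13.5 CPM (ratio 0.783, 0.732 to 0.839). The highest was Fastkd1 (ratio 1.15, 1.001 to 1.33). Of 78 mitochondrial ribosomal protein genes and of 7 regulators of mitochondrial biogenesis 0 were past it. Of 96 measured genes taken by name as cytosolic ribosomal protein genes, 1 was lower past it and 1 higher. The lower was the abundant gene Rpl29, at 1902 and 1063 CPM (ratio 0.559, 0.555 to 0.563). Its ratio was 0.537 in dermal papilla-like and 0.586 in fibroblast-like cells. The higher was Rpl39l, sparse (19 and 62 UMIs) and named after its value was seen. Of 13 genes of the mitochondrial and integrated stress response, 2 were lower and 1 higher past 1.5-fold, Chac1 (57 and 31 UMIs), Fgf21 (28 and 13 UMIs) and Gdf15 (13 and 20 UMIs), all sparse and named after their values were seen, and Ddit3, a stress transcription factor gene, had 25.9 and 20.8 CPM (ratio 0.804, 0.761 to 0.850). Mitophagy had 1 of 6 higher, Park2 with 35 and 55 UMIs, and Pink1, the kinase that marks damaged mitochondria, had 16.2 and 22.6 CPM (ratio 1.396, 1.31 to 1.48). Glycolysis had 0 of 15 past it, with Hk2, which makes glucose 6-phosphate, lowest at 0.801 (0.776 to 0.826). Of 15 genes induced by tissue dissociation, 1 was higher past 1.5-fold in the Chrna5-/- keratinocyte-like cells, the chaperone gene Dnajb1 (478 and 749 CPM), and the median was 0.28. The early response gene Fos had 2165 and 3179 CPM, and whether this response has a part in the mitochondrial values was not tested.

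In fibroblast-like cells, where the mitochondrial genes had the lowest ratios, 0 of 37 nuclear complex I genes were past 1.5-fold (median log2 ratio 0.02), against 22.2% of all measured genes. In complexes II to V together 1 gene was past it, Uqcrb, which was higher (197 and 281 UMIs). The sparser lists were less even: of 7 measured genes of mitochondrial DNA transcription and replication 3 were higher and 1 lower (median 0.36), and of 13 of mitochondrial RNA processing 0 were higher and 2 lower (median -0.22). Of 5 biogenesis regulators 1 was higher (median 0.20), and of 5 mitophagy genes 0 were past it (median 0.42).

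In dermal papilla-like cells 0 of 37 complex I genes were past 1.5-fold, against 13.1% of all measured genes, though their median was 0.20, with 13 intervals above 0 and 2 below. Of the measured genes of complexes II to V 0 were past it, with medians from 0.05 to 0.17. Of 13 genes of mitochondrial DNA transcription and replication 2 were higher (median 0.20), and of 18 of mitochondrial RNA processing 2 were higher and 2 lower. In melanocyte-like cells, where 31.5% of all measured genes were past 1.5-fold, 1 of 37 complex I genes and 1 of 14 complex V genes were lower past it and 0 of complexes II, III and IV, with medians from -0.28 to -0.10. Of 10 genes of mitochondrial DNA transcription and replication 7 were higher and 1 lower (median 0.77), and of 16 of mitochondrial RNA processing 1 was higher and 5 lower (median -0.21).

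Over the 12 points given by 6 classes in 2 libraries, the gene whose log2 CPM followed mt-Nd3 most closely was its neighbour mt-Co3 (Pearson's r = 0.94). Among 1032 nuclear genes with at least 20 UMIs at every point, the closest were Mapk6 (0.85), a kinase gene, Cops9 (0.77), Pcbp1 (0.75), which encodes an RNA-binding protein, Atp6v0e (0.73) and Tomm7 (0.70), a part of the import pore of the outer mitochondrial membrane. For the sum of the 10 genes they were Wdr1 (0.88), Aurkaip1 (0.88), Sec11c (0.87), Usf2 (0.87) and Tomm20 (0.85), the last an import receptor of mitochondria. These are descriptions of 12 points that share 2 libraries and differ in depth, and the names were picked as the highest of many.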

How the data were processed

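Single-cell RNA of dorsal skin was measured in 1 WT and 1 Chrna5-/- library. The deposited values are raw UMI counts per gene and barcode. Per the submitters' processing notes they were made with Cell Ranger 3.0.2 and Seurat 3.0 against mm10, while the file headers name software version 3.1.0. The strand setting of the counting is not given in the sources used here.

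Barcodes with at least 500 UMIs, 300 genes and at most 20% mt- UMIs were kept. Doublets were scored with Scrublet (scanpy 1.11.5, assumed rate 0.08) and removed above a score of 0.25, set after the scores were seen, because the caller's own thresholds marked 0.0295% of WT and 1.19% of Chrna5-/- cells. No cell annotation was used. A cell joined a class when it passed the marker gate of that class alone, by markers found and by marker UMIs per 10000: keratinocyte 5 and 100, fibroblast 3 and 100, dermal papilla and T and innate lymphoid 3 and 20, Langerhans and melanocyte 3 and 50. Keratinocyte-like cells were split into ranges: suprabasal 4 and 100, upper hair follicle 3 and 20, outer root sheath and bulge 4 and 20, else basal 4 and 100. All gates were set after the data were seen. The Langerhans gate was lowered from 100 to 50 per 10000, and the upper hair follicle gate from 4 to 3 markers, after ratios of the 10 genes had been seen.

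UMIs were summed per class and library (Python 3.11.15, numpy 2.4.6, pandas 2.3.3, figures with matplotlib 3.10.9). Ratios of CPM have exact conditional binomial 95% intervals (scipy 1.17.1), levels exact Poisson ones and shares Clopper-Pearson ones. A measured gene had at least 20 UMIs over both libraries. The count model tests were not run, since 1 library a genotype leaves no residual degrees of freedom; TMM factors came from edgeR 4.0.16 in R 4.3.3. The ratio and interval script was tested on simulated data. The members and lists were chosen with earlier results of these data known. Picked from each list were the 2 highest and 2 lowest genes by ratio in keratinocyte-like cells among those with at least 100 UMIs. Only part of these are printed, for several lists from 1 end only and for some lists none. The 5 nuclear genes most like each pattern were named too. Alternatives changed the mt- limit, doublet removal, gates, depth, shared barcodes, scaling and weighting.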

Additional observations from a re-analysis of the deposited data

Results flagged for a closer look

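In 6 of the 13 mitochondrially encoded protein genes, melanocyte-like and fibroblast-like cells lay on opposite sides of 0 in the log2 ratio of CPM, Chrna5-/- over WT, each past 1.2-fold and with an interval that left out 0, a fold chosen after the ratios were seen. The difference between the classes was not tested, since each genotype has 1 library. The share of all measured genes that meet this rule was not computed, so the count has no background beside it. Past 1.5-fold either way were 31.5% of the measured genes in melanocyte-like and 22.2% in fibroblast-like cells. mt-Co2 was 0.34 in melanocyte-like and -0.97 in fibroblast-like cells, and mt-Atp6 was 0.46 and -0.86. mt-Atp8 was 0.69 and -0.97, and mt-Nd4l was 0.96 and -0.28. mt-Nd4 was 0.51 and -0.54, and mt-Nd5 was 0.40 and -0.61. With the limit of 10% mt- UMIs per cell, the melanocyte-like values of mt-Co2 (-0.25), mt-Atp6 (-0.18), mt-Nd4 (-0.07) and mt-Nd5 (-0.23) were below 0, on the same side as the fibroblast-like ones, while mt-Atp8 (0.19) and mt-Nd4l (0.32) stayed above 0.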

How the results depend on the processing

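No paired analysis was possible because each genotype has 1 library and the labels give no replicate numbers, and for the same reason no library could be left out. Over all classes and alternatives, mt-Nd3 was below 0 on the log2 scale in 102 of 102 values (-2.65 to -0.55), where the 4 keratinocyte ranges are nested in the keratinocyte-like class. Of these values, 30 come from 3 scalings whose largest shift was -0.07, too small to turn the sign. Against the other 9 genes mt-Nd3 was below 0 in all 72 values outside the 3 scalings, which cannot change this ratio. These ranged from -1.73 to -0.46, the latter in Langerhans cell-like cells after thinning. Not all of them were free to move. Leaving out the barcodes in both libraries kept the main values in Langerhans cell-like (-1.06) and melanocyte-like cells (-1.26). The summed level was below 0 in 92 of 102, the exceptions being 9 values of melanocyte-like cells (range of that class -0.35 to 0.72) and 1 of suprabasal-like cells (0.00). In keratinocyte-like cells 1 of the 10 genes was past 1.5-fold under each alternative that was run. There mt-Nd3 was -1.21 with each cell thinned to 1000 UMIs and -1.16 as a mean over cells, and against the other 9 genes it was -1.13 after thinning. The summed level, -0.17 in the main analysis, was -0.19 at the 10% mt- limit, -0.18 with no limit, -0.16 with a stricter gate, -0.089 after thinning, -0.18 over CPM without mitochondrial genes, -0.15 with TMM factors, -0.15 with median-of-ratios factors and -0.079 as a mean over cells. With the first gates, chosen as alternatives after seeing the data, mt-Nd3 was -1.19 in Langerhans cell-like cells (77 and 49 cells) and -0.96 in upper hair follicle-like cells (93 and 51), where the summed level was -0.19. The stricter gate left 70 and 43 Langerhans cell-like cells and thinning 65 and 32. Without the minimum of 20 UMIs, 28.3% of 20205 genes in keratinocyte-like cells were past 1.5-fold. In Langerhans cell-like and melanocyte-like cells the low depth and cell number limit every value. Intervals cover counting error only, and the spread between mice or libraries is unknown.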
